A study of Mus musculus with 6 samples.

Results

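The genes described here encode the machinery of fatty acid oxidation in the liver: regulators of the pathway, proteins that take up, bind and activate fatty acids, and the enzymes and carriers of mitochondrial, peroxisomal and microsomal oxidation. They were taken from a list of 47 symbols, of which Peci is an older name of Eci2, so that 46 distinct genes of the 54232 in the count files remain, and all 46 were matched. By compartment they comprise 2 regulators, 4 genes of uptake, binding and activation, 22 mitochondrial genes, 11 peroxisomal genes, 5 microsomal genes and 2 genes of cytosolic or membrane-anchored enzymes. The libraries were made from liver RNA of male C57BL/6 mice on a chow diet, aged 8 to 10 weeks, in 2 groups of 3 libraries. DKO mice were Fxr-/- with Xbp1 deleted in the liver (Xbp1 LKO), and SKO mice were Fxr-/- with intact floxed alleles (Xbp1 fl/fl). All animals therefore lacked FXR, the nuclear bile acid receptor, and setting DKO against SKO asks what the added loss of hepatic XBP1, which activates genes of the unfolded protein response, changes in FXR-null liver. The Cre driver is not stated in the sources at hand, and the titles of 4 libraries carry a pair of numbers whose meaning is not explained either. Whether each library of a group is a different animal is not stated. The p-values therefore rest on the spread among these libraries, part of which may be technical.

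Long-chain fatty acids entering a hepatocyte are bound by cytosolic binding proteins and joined to coenzyme A by acyl-CoA synthetases. Mitochondria oxidise most of them after transfer across their membranes as carnitine esters, peroxisomes shorten very long, branched and dicarboxylic chains, and microsomal CYP4A enzymes hydroxylate the omega end. PPAR-alpha, encoded by Ppara, is a nuclear receptor activated by fatty acids. It binds with RXR to direct repeats of a hexamer and is the main transcriptional activator of these genes in mouse liver, above all in fasting.

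Total counts were 18382107 to 21107674 in DKO and 16966422 to 20211285 in SKO. For a count of 0 the upper 95% limit is about 3 counts. At these depths 3 counts correspond to 0.126 to 0.191 CPM, the counts-per-million scale normalised between libraries. This limit covers counting error only. Xbp1 transcript averaged 77.1 ± 16.3 CPM in DKO and 247 ± 18.9 CPM in SKO (SD, n = 3 each; log2 -1.68 ± 0.14 SE, edgeR adjusted p = 0.000146). Nr1h4, the gene of FXR, was counted at 97.4 ± 3.35 CPM in DKO and 98.6 ± 5.94 CPM in SKO, which does not check the null allele, since the exons it lacks are not stated. Markers of hepatocytes were counted in every library, at a sum of 54547 to 67158 CPM over 9 genes in DKO and 84447 to 111878 CPM in SKO, and 6 of the 9 fell. Alb made up most of each sum, at a mean of 35799.6 CPM in DKO and 66486 CPM in SKO. The median log2 fold change of the 9 was -0.48. Cps1, Fah and Tat were not called, at log2 -0.24, -0.19 and 0.59. Markers of other cells moved too: 3 of 8 Kupffer cell, 3 of 7 stellate cell and 3 of 5 cholangiocyte markers rose, with sums of 575 to 884, 601 to 762 and 121 to 199 CPM in DKO and 445 to 554, 403 to 494 and 60.8 to 73.4 CPM in SKO. None of 6 sinusoidal endothelial markers was called, with sums of 352 to 392 CPM in DKO and 400.5 to 425 CPM in SKO. None of 6 lymphocyte markers was called either, at sums of 4.52 to 7.74 CPM in DKO and 4.56 to 6.23 CPM in SKO, and adipocyte markers summed to at most 23.4 CPM in DKO and 34.7 CPM in SKO. Skeletal muscle markers stood at 38.4 CPM in DKO replicate 1 and at most 0.254 CPM in every other library. In bulk liver, fewer cells of a type and less RNA per cell cannot be told apart, and the part of these shifts in the results below was not tested.

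Fatty acid oxidation genes that changed were lower in DKO with 1 exception. Of the 46 genes, 12 fell, 1 rose and 33 were not called at an edgeR adjusted p under 0.05. This is 28.3% called, where 20.0% of all 13986 genes tested were called, 9.70% lower and 10.3% higher. The largest falls were at the entry to the pathway, in Fabp1 and Acsl1, while most enzymes of the mitochondrial spiral were not called. Of the 11 peroxisomal genes 5 fell, and the single rise was the microsomal Cyp4a31. The median log2 fold change was -0.20 over the 46 genes and 0.01 over all genes tested, with 35 of the 46 below 0 and 11 above. In 17 of the 46 all DKO libraries lay below all SKO libraries, and in 3 they lay above, or 37.0% and 6.52%, against 19.4% and 20.2% of all genes. Differences between compartments were not tested. In the further lists given below, the median log2 fold changes were -0.25 for mitochondrial and -0.26 for peroxisomal genes. Scaling by total counts in place of TMM factors gave medians of 0.02 over the 46 and 0.226 over all genes, and then called 6 of the 46 higher and 6 lower, where 31.4% of all genes were called, 27.6% higher and 3.85% lower.

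**Figure D1:**
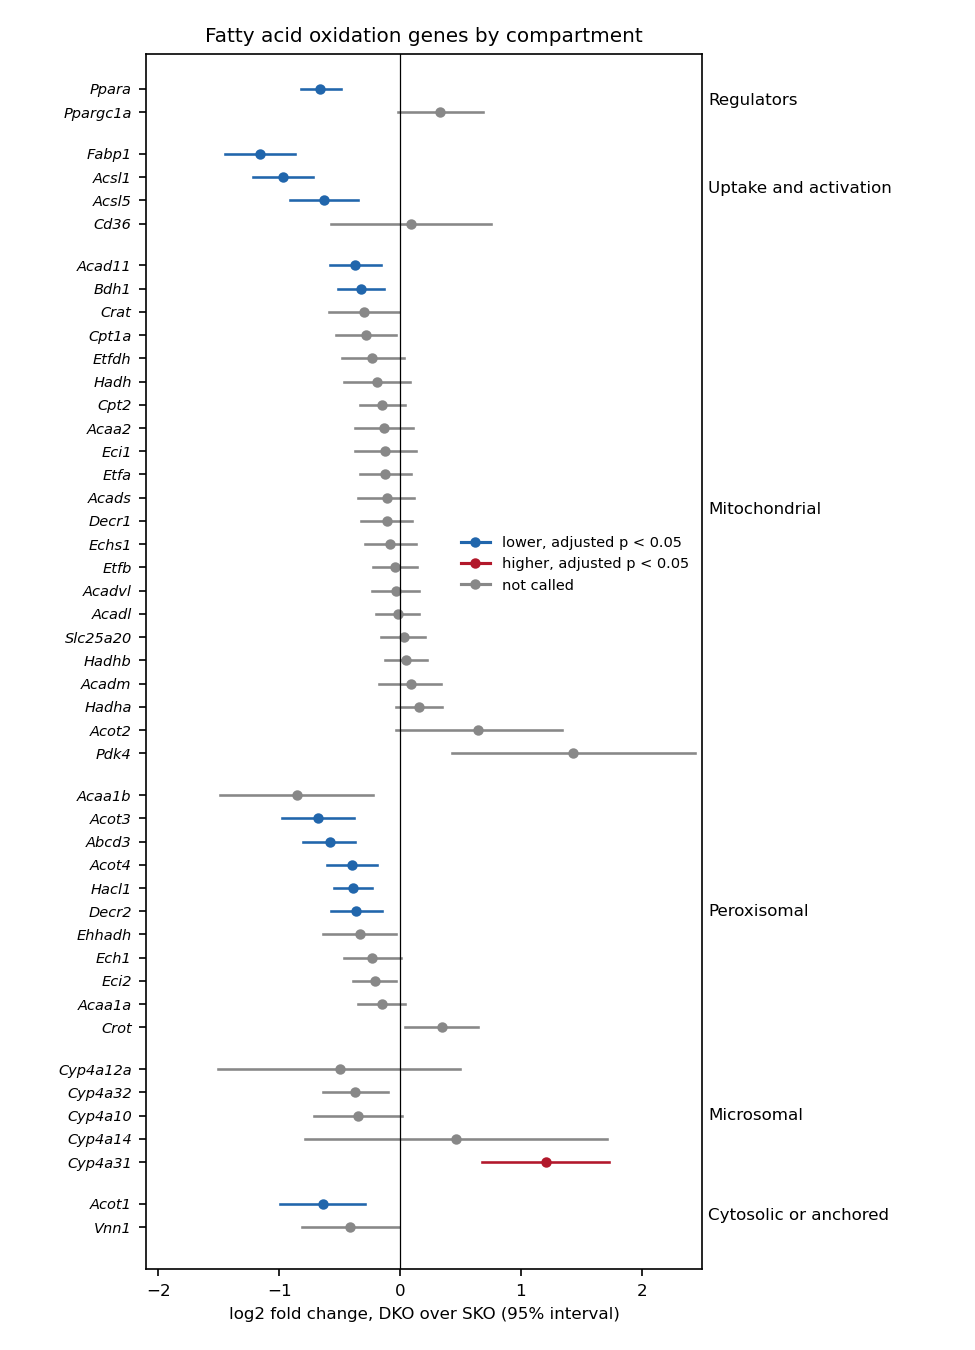
Log2 fold changes (DKO over SKO, x axis) of the 46 fatty acid oxidation genes grouped by compartment, as points with 95% intervals from edgeR, blue for lower, red for higher and grey for not called. Mitochondrial genes cluster near 0, with a median of -0.11, while 10 of 11 peroxisomal genes lie below 0, with a median of -0.36.

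Ppara fell, and the second regulator, Ppargc1a, was not called. Ppara (ENSMUSG00000022383, chromosome 15, 85734983 to 85802819, mm10) had 147, 157 and 152 CPM in the DKO libraries, against 240.2, 236 and 243 CPM in the SKO libraries. The groups were far apart and each was tight. Its log2 fold change was -0.66 ± 0.07 (SE, 95% interval -0.82 to -0.49; edgeR adjusted p = 0.000378), and this call held in all 12 fits run. Ppargc1a, which encodes the coactivator PGC-1-alpha of mitochondrial and fasting genes, had 9.29, 12.9 and 14.7 CPM in DKO and 10.0, 9.33 and 9.80 CPM in SKO. DKO replicate 1 lay below every SKO library and the other DKO libraries above them. Ppargc1a was not called (log2 0.33 ± 0.16, interval -0.02 to 0.69, edgeR adjusted p = 0.17). Without DKO replicate 1, which carried the muscle transcripts, its log2 fold change was 0.50 and it was called higher (edgeR adjusted p = 0.0178), as with total counts.

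Uptake, binding and activation held the largest falls, with 3 of 4 genes lower, where 9.70% of all genes were, and a median log2 fold change of -0.80. Fabp1, the liver fatty acid binding protein (chromosome 6, 71199827 to 71205023), had 2253, 2655 and 2238 CPM in DKO, against 5839, 5324 and 4816 CPM in SKO. Per kilobase of transcript it was the most abundant of the 46 genes, at 4308 CPM per kb in DKO and 9632 CPM per kb in SKO. Every DKO library had less than any SKO library by a wide margin (log2 -1.16 ± 0.13, edgeR adjusted p = 0.000382). Acsl1, the main long-chain acyl-CoA synthetase of liver (chromosome 8, 46471037 to 46536051), had 921, 1099 and 917 CPM in DKO, against 1846, 1893 and 2003 CPM in SKO. The ranges were again well apart (log2 -0.97 ± 0.11, edgeR adjusted p = 0.000473). Acsl5, a second acyl-CoA synthetase of the outer mitochondrial membrane and endoplasmic reticulum, had 317, 297 and 348 CPM in DKO, against 567, 515 and 406 CPM in SKO. It fell by less, and SKO replicate 3 came nearest to the DKO libraries (log2 -0.63 ± 0.13, edgeR adjusted p = 0.00819). Cd36, the scavenger receptor for fatty acid uptake, varied within both groups, at 250.5, 161 and 252 CPM in DKO and 276, 152 and 197 CPM in SKO. The groups overlapped fully, and the interval of its log2 fold change ran from -0.57 to 0.75, so a moderate change in either direction was not detectable here. Its sign changed when DKO replicate 1, DKO replicate 3 or SKO replicate 2 was left out.

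**Figure D2:**
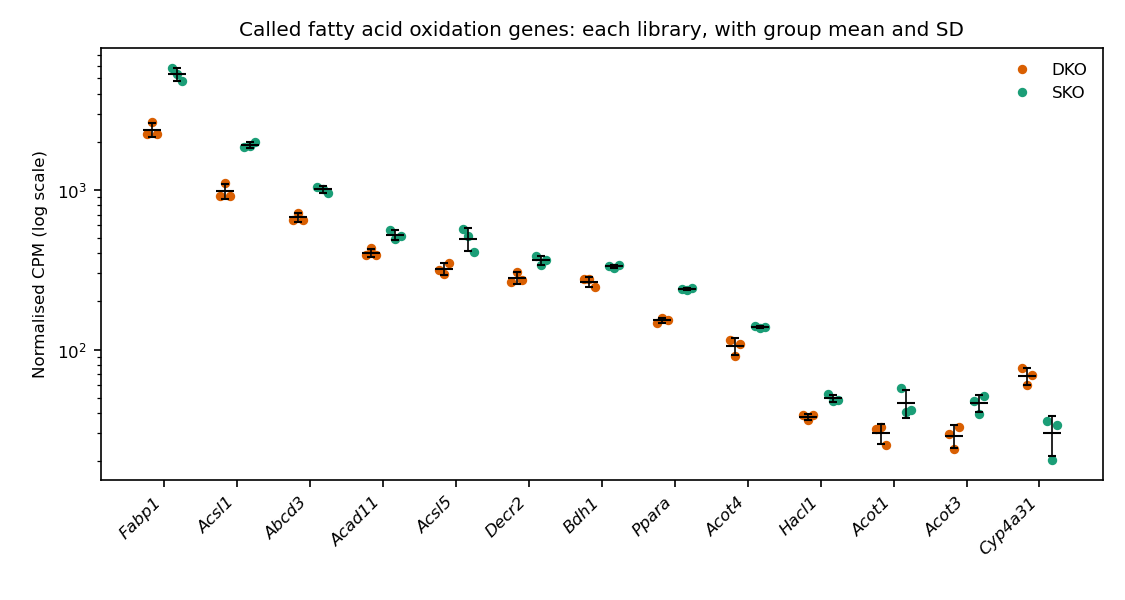
Normalised CPM (log axis) of the 13 called genes in each library, DKO points left of SKO points, with the mean and SD of each group (n = 3). DKO points lie below SKO points in 12 genes and above them in Cyp4a31, with means of 68.7 CPM in DKO and 29.8 CPM in SKO.

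Promoter sequences were searched for the element that PPAR-alpha with RXR is known to bind, a direct repeat with 1 spacer base, AGGTCANAGGTCA, on both strands and with up to 2 mismatches. RefSeq promoters of GRCm38.p6, covering 250 bases before to 50 bases after a start, were found for 38 of the 46 genes, in 42 windows. A match was found in 6 of the 42 windows (14.3%), 1 for each of 6 genes, against 1268 of 32851 promoters of all genes (3.86%). With 1 mismatch at most, Fabp1 alone remained (2.38% of the windows, 0.554% of all promoters), and no window held an exact copy (0.0396% of all promoters). The matches are shown in gene orientation, 5′ to 3′, with the matched letters in capitals, because Fabp1 and Acot4 fell while Cd36, Echs1, Etfa and Slc25a20 were not called. They lie at chr5:17835917-17835989 (minus strand, Cd36), chr6:71199782-71199854 (plus strand, Fabp1), chr7:140116462-140116534 (minus strand, Echs1), chr9:55512278-55512350 (minus strand, Etfa), chr9:108662142-108662154 (plus strand, Slc25a20, inside the transcribed part) and chr12:84038336-84038378 (plus strand, Acot4).
Fabp1: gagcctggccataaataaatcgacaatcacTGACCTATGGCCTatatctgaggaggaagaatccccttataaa
Acot4: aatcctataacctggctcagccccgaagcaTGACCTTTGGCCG
Cd36: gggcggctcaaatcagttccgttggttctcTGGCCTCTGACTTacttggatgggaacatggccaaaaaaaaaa
Echs1: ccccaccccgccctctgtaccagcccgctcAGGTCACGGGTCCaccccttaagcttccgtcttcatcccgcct
Etfa: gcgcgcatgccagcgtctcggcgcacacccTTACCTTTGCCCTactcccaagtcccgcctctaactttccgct
Slc25a20: AGGTGAAAGGTCG
The XBP1-type element TGACGTGG, searched on both strands with no mismatch, was found in 1 of the 42 windows, that of Ppargc1a at chr5:51567740-51567807 (minus strand), and in 222 of all promoters (0.676%). It is shown as the only such match.
Ppargc1a: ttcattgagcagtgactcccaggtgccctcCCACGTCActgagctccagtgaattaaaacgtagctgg
A match describes these letters and is not a binding site, and most genes that fell, Ppara, Acsl1 and Abcd3 among them, had no match or no window in this search.

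Few mitochondrial oxidation genes were called. Of 22 genes 2 fell, 20 were not called, and the median log2 fold change was -0.11. This is 9.09% called, below the 20.0% of all genes. With total counts neither of the 2 was called, and Pdk4, Hadha and Hadhb were called higher. Acad11, an acyl-CoA dehydrogenase for longer chains that has also been placed in peroxisomes, had 389, 432 and 392 CPM in DKO, against 562, 492 and 515 CPM in SKO. Bdh1, the dehydrogenase that makes the ketone body beta-hydroxybutyrate, had 277, 276 and 245 CPM in DKO, against 335, 325 and 338 CPM in SKO. In both genes every DKO library lay below every SKO library, with log2 fold changes of -0.37 ± 0.09 (edgeR adjusted p = 0.0214) and -0.32 ± 0.08 (adjusted p = 0.0249). These calls were not firm: that of Acad11 ended in 4 of the 6 fits without 1 library and with total counts, and that of Bdh1 in the same 4 fits, without DKO replicate 3 or any SKO library, and with upper-quartile factors and total counts (adjusted p up to 0.21 and 0.414).

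The carnitine shuttle, which carries acyl groups into the matrix, was not called at any step. Cpt1a, the malonyl-CoA-sensitive transferase at the outer membrane, had 659.9, 726 and 696 CPM in DKO, against 733, 855 and 944 CPM in SKO. Its groups did not overlap, but the gap between the highest DKO and lowest SKO library was small (log2 -0.28 ± 0.11, interval -0.53 to -0.03, edgeR adjusted p = 0.104). Cpt2, the inner-membrane transferase, averaged 221 ± 17.3 CPM in DKO and 245 ± 7.91 CPM in SKO, and Slc25a20, the carnitine-acylcarnitine carrier, 191 ± 16.1 CPM in DKO and 188 ± 2.51 CPM in SKO. Crat, carnitine acetyltransferase, averaged 67.6 ± 11.0 CPM in DKO and 83.2 ± 10.4 CPM in SKO (log2 -0.30 ± 0.13, edgeR adjusted p = 0.136).

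The spiral itself was measured by the acyl-CoA dehydrogenases, the trifunctional protein and the short-chain enzymes. Acadl, Acadvl, Acadm and Acads, dehydrogenases of long, very long, medium and short chains, had log2 fold changes of -0.02, -0.03, 0.09 and -0.11. Of the 20 uncalled mitochondrial genes, 16 had 95% intervals wholly between -0.5 and 0.5, and the other 4 were Cpt1a, Acot2, Crat and Pdk4. Acaa2, the thiolase of the spiral, was the most abundant of the 22 at a mean of 828 CPM per kb, with 1119, 1310 and 1168 CPM in DKO and 1388, 1319 and 1232 CPM in SKO (log2 -0.13 ± 0.11, edgeR adjusted p = 0.424). Next came Etfa, a subunit of the flavoprotein that accepts electrons from the dehydrogenases, at 293 CPM per kb, and Hadh, the short-chain hydroxyacyl-CoA dehydrogenase, at 271 CPM per kb. Their log2 fold changes were -0.12 ± 0.09 and -0.19 ± 0.12. Hadha, the alpha subunit of the trifunctional protein, had 625, 633 and 618 CPM in DKO and 556, 549 and 578 CPM in SKO. All its DKO libraries were above all SKO libraries, by a small amount that was not called (log2 0.16 ± 0.08, adjusted p = 0.224). Hadhb, the beta subunit, had 43.8, 44.2 and 43.8 CPM in DKO and 46.4, 39.6 and 41.4 CPM in SKO. It stood at 21.5 CPM per kb in DKO and 20.7 CPM per kb in SKO, where Hadha stood at 156 and 139.7 CPM per kb. Over 69.7% of the Hadhb transcript the pseudogene Gm13910 is up to 99.8% identical, so the level of Hadhb is uncertain. Acadvl shares exonic bases with Dvl2 on the opposite strand and Etfb with Gm45233, and the handling of strand and of shared bases is not stated, so both levels are uncertain.

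Of the 20 uncalled mitochondrial genes 6 had log2 fold changes above 0, and Pdk4 and Acot2 had the largest of these. Pdk4, the kinase that switches off pyruvate dehydrogenase when fatty acids are burnt, had 43.3, 25.7 and 26.4 CPM in DKO, against 18.2, 9.71 and 7.78 CPM in SKO. All DKO libraries were above all SKO libraries, and replicate 1 was the highest of its group in both. Its log2 fold change was 1.43 ± 0.39 (interval 0.43 to 2.44, edgeR adjusted p = 0.0622). It was called higher with DESeq2, limma-voom and total counts and without SKO replicate 1. Acot2, a mitochondrial acyl-CoA thioesterase, had 16.6, 7.97 and 10.2 CPM in DKO and 9.41, 6.42 and 6.48 CPM in SKO (log2 0.65 ± 0.29, adjusted p = 0.161). DKO replicate 1, with its 38.4 CPM of muscle markers, had the highest value of both genes. SKO replicate 1, at 0.254 CPM of these markers, was the highest of its group for both, and the part of muscle RNA was not tested. Without DKO replicate 1 the log2 fold changes of Pdk4 and Acot2 were 1.14 and 0.29, and neither was called. Acot2 was called higher with no filter and without DKO replicate 2 (adjusted p down to 0.000497), and in no other fit.

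Of the 11 peroxisomal oxidation genes, 5 fell, none rose and 6 were not called. This is 45.5% called, all lower, where 20.0% of all genes were called and 9.70% were lower. In 9 of the 11 (81.8%) all DKO libraries lay below all SKO libraries, against 19.4% of all genes. Crot differed from the others in direction and was called higher in 4 of the 12 fits. Abcd3, the transporter that brings branched and dicarboxylic acyl-CoAs into the peroxisome (chromosome 3, 121758774 to 121815302), had 646, 721 and 652 CPM in DKO, against 1047, 1020.1 and 953 CPM in SKO. The groups were well apart (log2 -0.58 ± 0.10, edgeR adjusted p = 0.00341). Decr2, a dienoyl-CoA reductase for unsaturated chains, had 264, 307 and 274 CPM in DKO, against 386, 338 and 362 CPM in SKO (log2 -0.36 ± 0.09, adjusted p = 0.0235). Its call ended with total counts and without DKO replicate 1, DKO replicate 3, SKO replicate 1 or SKO replicate 3 (adjusted p up to 0.233). Hacl1, the lyase of alpha-oxidation of branched chains, had 38.7, 36.1 and 38.7 CPM in DKO, against 52.3, 47.8 and 48.3 CPM in SKO. Replicates of Hacl1 were close in both groups (log2 -0.39 ± 0.07, adjusted p = 0.00566), and the call ended with total counts alone. Over 58.2% of its transcript Hacl1 shares sequence with Gm49387, which had no counts, so reads may have been left out of its level in both groups.

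Of the peroxisomal thioesterases, which release free acids from acyl-CoA, Acot3 and Acot4 fell, and Acot6 and Acot8, counted among the further pathway genes, were not called. Acot3 (chromosome 12, 84052144 to 84060402) had 29.7, 23.7 and 32.9 CPM in DKO, against 47.9, 39.7 and 51.1 CPM in SKO, and Acot4 (chromosome 12, 84038379 to 84048601) had 115, 90.8 and 109 CPM in DKO, against 141, 136 and 139 CPM in SKO. Neither overlapped between the groups (log2 -0.68 ± 0.13 and -0.40 ± 0.09, edgeR adjusted p = 0.00863 and 0.0145), and Acot4 lost its call with total counts alone. Acot6 had 4.33, 3.08 and 3.27 CPM in DKO and 2.80, 1.87 and 2.37 CPM in SKO, with all DKO libraries above all SKO libraries (log2 0.61 ± 0.23, adjusted p = 0.0849), and was called higher in 1 of 12 fits. Acot8 had 20.3, 20.5 and 18.4 CPM in DKO and 21.5, 20.8 and 20.7 CPM in SKO (log2 -0.09 ± 0.08, adjusted p = 0.51). Acot1, a cytosolic relative in the cluster of Acot3 and Acot4, had 31.7, 32.6 and 25.1 CPM in DKO, against 57.2, 40.7 and 41.7 CPM in SKO (log2 -0.64 ± 0.15, adjusted p = 0.0222). Acot1 lost its call without DKO replicate 1 or 3 and with total counts, and over 56.1% of its transcript it is up to 95.1% identical to Acot2, so the split of reads between the pair is uncertain. Acot1 over Acot2 was 1.91, 4.09 and 2.46 in DKO and 6.08, 6.34 and 6.43 in SKO.

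The remaining peroxisomal genes were not called. Acaa1b, a thiolase of peroxisomal oxidation, had the largest difference among the 11, at 322, 378 and 232 CPM in DKO against 758, 494 and 431 CPM in SKO. SKO replicate 1 stood far above its group (log2 -0.85 ± 0.26, interval -1.49 to -0.22, edgeR adjusted p = 0.0669). Its near copy Acaa1a, up to 98.7% identical over 81.0% of the Acaa1a transcript, had 244, 255 and 226 CPM in DKO and 289, 258 and 261 CPM in SKO (log2 -0.15 ± 0.09), and reads may be split between the pair. Ehhadh, the bifunctional hydratase and dehydrogenase, averaged 514 ± 72.7 CPM in DKO and 646 ± 101 CPM in SKO (log2 -0.33 ± 0.14, adjusted p = 0.116), and Eci2, an enoyl-CoA isomerase, 303 ± 13.9 CPM in DKO and 350.2 ± 5.40 CPM in SKO (log2 -0.21 ± 0.08, adjusted p = 0.0935). Ech1, a dienoyl-CoA isomerase and the second most abundant of the 11 at 333 CPM per kb, had 363, 420.4 and 384 CPM in DKO and 515, 428 and 422 CPM in SKO. Its groups nearly touched (log2 -0.23 ± 0.11, adjusted p = 0.163). Crot, the carnitine octanoyltransferase that exports shortened chains, was the most abundant at 379 CPM per kb and the only one above 0, with 1314, 1291 and 1212 CPM in DKO and 1223, 857 and 919 CPM in SKO. SKO replicate 1 lay within the DKO range, and Crot was not called (log2 0.35 ± 0.14, interval 0.04 to 0.65, adjusted p = 0.102). It was called higher with DESeq2, with total counts, with no filter and without SKO replicate 1 (adjusted p down to 0.0133).

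Microsomal oxidation was measured by 5 Cyp4a genes of a cluster on chromosome 4, and 1 of them rose. This is 20.0% called, the same share as of all genes. Cyp4a31 (115563649 to 115579015) had 76.6, 60.0 and 69.3 CPM in DKO, against 35.5, 20.2 and 33.8 CPM in SKO. Each DKO library was above every SKO library, and the fold change was 2.31 (log2 1.21 ± 0.22, interval 0.68 to 1.73, edgeR adjusted p = 0.0135). Without DKO replicate 1 the adjusted p was 0.0522 at a log2 fold change of 1.12. Cyp4a10, a fatty acid omega-hydroxylase that PPAR-alpha agonists strongly induce in mouse liver, had 708, 670.4 and 629.8 CPM in DKO and 1063, 649 and 843 CPM in SKO. Cyp4a14, which is likewise inducible, had 1834, 1734 and 1566 CPM in DKO and 1979.6, 511 and 1240.4 CPM in SKO. SKO libraries of both genes spread widely with replicate 2 lowest, and neither was called (log2 -0.35 ± 0.16 and 0.46 ± 0.49, adjusted p = 0.161 and 0.568). The interval of Cyp4a14 ran from -0.79 to 1.71, so large changes were not detectable for it. Cyp4a12a, which is typical of males and has a near copy in Cyp4a12b, had 65.7, 165 and 141 CPM in DKO and 148, 157 and 222 CPM in SKO (log2 -0.50 ± 0.39, adjusted p = 0.434). DKO replicate 1 was the lowest of all 6 libraries for this gene. Cyp4a32 had 25.3, 27.6 and 34.1 CPM in DKO and 40.1, 33.0 and 39.1 CPM in SKO (log2 -0.37 ± 0.12, adjusted p = 0.0585).

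Near-identical sequence limits what can be said of single Cyp4a genes. Over 63.3% of its transcript Cyp4a31 is up to 96.8% identical to Cyp4a10, and all of the Cyp4a32 transcript has a match in Cyp4a10 of up to 98.0% identity, so reads of these 3 genes may be split or dropped. Cyp4a10 held 86192 counts over the 6 libraries, Cyp4a31 5914 and Cyp4a32 3749. The ratio of Cyp4a31 to Cyp4a10 was 0.108, 0.0895 and 0.11 in DKO and 0.0334, 0.0312 and 0.0401 in SKO, with no overlap. That of Cyp4a32 to Cyp4a10 overlapped, at 0.0357, 0.0412 and 0.0541 in DKO and 0.0377, 0.0508 and 0.0464 in SKO. That of Cyp4a14 to Cyp4a10 was 2.59, 2.59 and 2.49 in DKO and 1.86, 0.788 and 1.47 in SKO, again with no overlap. A higher ratio to Cyp4a10 in DKO was therefore not particular to Cyp4a31. Cyp4a10, Cyp4a31 and Cyp4a32 together summed to 809.7, 758 and 733 CPM in DKO and 1139, 702 and 916 CPM in SKO, where the groups overlapped.

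**Figure D3:**
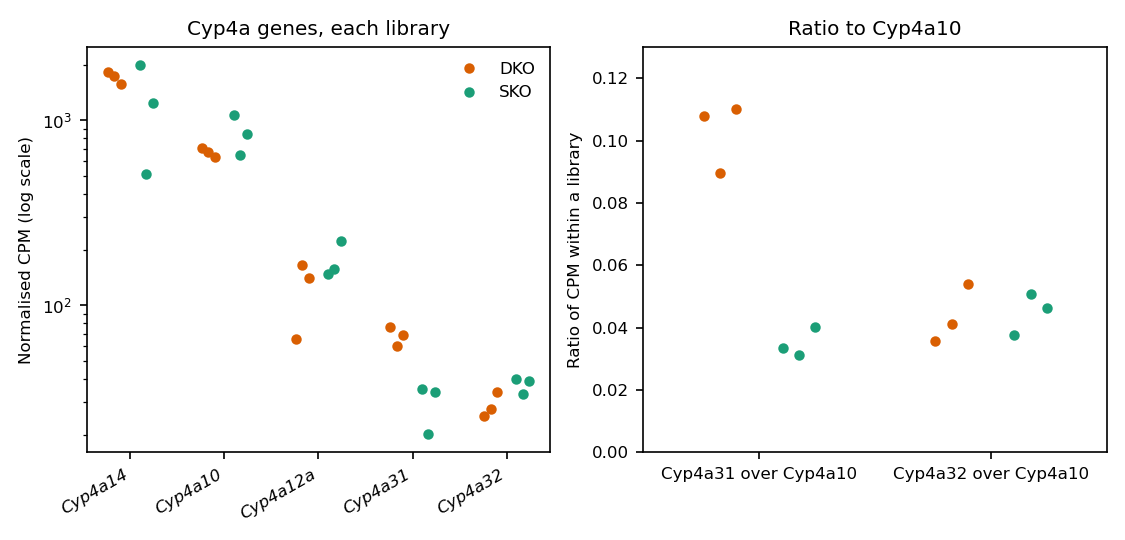
Normalised CPM of the 5 Cyp4a genes (left panel, log axis) and the ratio of Cyp4a31 and of Cyp4a32 to Cyp4a10 within each library (right panel, linear axis from 0), as 1 point per library, DKO left of SKO (n = 3 each). In the left panel Cyp4a31 is the only gene whose groups do not overlap and Cyp4a14 spans 511 to 1979.6 CPM in SKO, and in the right panel the groups are apart for Cyp4a31 and overlap for Cyp4a32.

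Vnn1, a membrane-anchored pantetheinase that is a known PPAR-alpha target, had 165, 178 and 126 CPM in DKO and 243, 163 and 218 CPM in SKO. SKO replicate 2 lay within the DKO range, and Vnn1 was not called (log2 -0.41 ± 0.17, interval -0.81 to -0.01, edgeR adjusted p = 0.135). It is 1 of 9 uncalled genes whose 95% interval leaves out 0, with Cpt1a, Crat, Pdk4, Eci2, Acaa1b, Ehhadh, Crot and Cyp4a32. Of the 12 fits, Vnn1, Acaa1b and Cyp4a32 were called lower in 3 each, Cpt1a, Crat and Ehhadh in 2 each, and Eci2 in 1. Cyp4a10, whose interval held 0, was called lower in 2, and Pdk4 and Crot were called higher in 4 each.

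Across libraries SKO replicate 1 had the highest levels of these genes. As the mean over all 46 genes of log2(CPM + 1) minus each gene's mean over the 6 libraries, the DKO libraries stood at -0.085, -0.039 and -0.122 and the SKO libraries at 0.237, -0.034 and 0.043, so SKO replicate 2 lay only just above the highest DKO library. The peroxisomal genes kept the groups apart, at -0.145, -0.149 and -0.221 in DKO and 0.322, 0.090 and 0.104 in SKO. The mitochondrial genes overlapped, at 0.010, 0.045 and -0.078 in DKO and 0.132, -0.049 and -0.061 in SKO. Summed CPM over the 4 genes of uptake and activation were 3743 to 4213 in DKO and 7421 to 8527 in SKO, carried mainly by Fabp1 and Acsl1. Without SKO replicate 1 the median log2 fold change of the 46 genes was -0.12, with 3 called higher and 10 lower, where 16.3% of all genes were called, 7.94% higher and 8.34% lower.

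**Figure D4:**
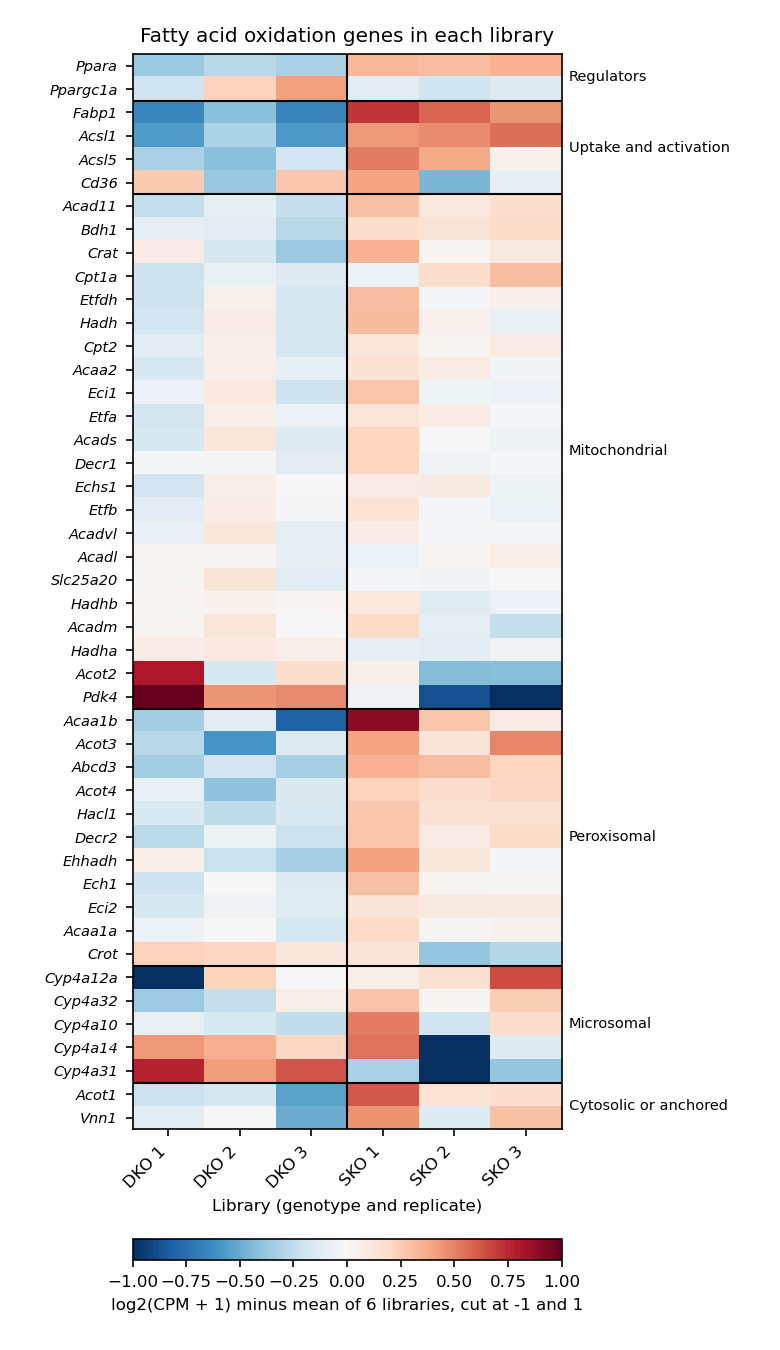
Level of each of the 46 genes as log2(CPM + 1) minus its mean over the 6 libraries, with colours cut at -1 and 1, genes as rows grouped by compartment and libraries as columns, DKO left of SKO. Fabp1, Acsl1 and Ppara separate the groups, most mitochondrial rows are pale, and SKO replicate 1 is the highest column, with a mean of 0.237.

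Other genes of the pathway were counted in 7 further lists of 124 genes, of which 115 were tested. Of these 9 rose and 31 fell, or 34.8% called, where 20.0% of all genes were called, 10.3% higher and 9.70% lower, and each list count below is to be read against those shares. Apart from Acot6 and Acot8, given above, the genes named from each list are those with its 3 smallest p-values, with Fgf21 added. These are therefore not typical of it. The further peroxisomal list had 10 lower and none higher of 22 tested, among them Slc25a17, a cofactor carrier of the peroxisomal membrane (36.8 ± 4.59 CPM in DKO and 69.1 ± 1.67 CPM in SKO, log2 -0.91 ± 0.09, edgeR adjusted p = 0.000182). Pecr, a trans-enoyl-CoA reductase, and Nudt7, a coenzyme A diphosphatase, fell in the same list (log2 -0.64 ± 0.11 and -0.77 ± 0.15). The uptake and activation list had 7 lower and 1 higher of 14 tested. Fabp2, the intestinal-type fatty acid binding protein, had 18.0, 23.6 and 20.3 CPM in DKO, against 65.3, 73.5 and 67.8 CPM in SKO (log2 -1.74 ± 0.10, adjusted p = 1.2e-05). The groups were far apart, and Fabp5, a further binding protein, fell too (log2 -1.07 ± 0.14), as did the bile acid and very long chain acyl-CoA ligase gene Slc27a5 (log2 -1.14 ± 0.12).

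The further mitochondrial list had 5 lower and 2 higher of 21 tested, with a median log2 fold change of -0.25. In 42.9% of these genes all DKO libraries lay below all SKO libraries, and in 14.3% above, against 19.4% and 20.2% of all genes. Its smallest p-value was that of Acacb, the acetyl-CoA carboxylase whose product malonyl-CoA inhibits Cpt1a, at 67.4, 63.2 and 77.4 CPM in DKO against 142, 134 and 124 CPM in SKO. The groups were well apart (log2 -0.95 ± 0.09, edgeR adjusted p = 0.000165), and the medium-chain acyl-CoA synthetases Acsm5 and Acsm3 also fell (log2 -0.63 ± 0.08 and -0.61 ± 0.11). Among 8 genes of ketone body use, transport and synthesis, 2 rose and 1 fell. Slc16a6, a transporter that exports beta-hydroxybutyrate from hepatocytes in zebrafish, had 11.9, 11.7 and 11.9 CPM in DKO, against 6.74, 5.82 and 7.61 CPM in SKO (log2 0.81 ± 0.13, adjusted p = 0.00223). Oxct1, the enzyme of ketone body use that hepatocytes make little of, averaged 10.4 ± 1.93 CPM in DKO and 6.59 ± 0.196 CPM in SKO (log2 0.67 ± 0.15, adjusted p = 0.013), and its call ended without SKO replicate 2 (adjusted p = 0.0537). It is no hepatocyte marker and rose beside the Kupffer, stellate and cholangiocyte markers given above, whose part in it was not tested. Bdh2, a cytosolic dehydrogenase, had 4.25, 5.47 and 5.24 CPM in DKO, against 12.1, 19.5 and 12.5 CPM in SKO (log2 -1.57 ± 0.20, adjusted p = 0.00124).

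The microsomal and omega-oxidation list had 2 lower and 2 higher of 13 tested. Cyp4f16, another P450 gene of the Cyp4 family, averaged 6.87 ± 1.20 CPM in DKO and 2.81 ± 0.473 CPM in SKO (log2 1.30 ± 0.20, edgeR adjusted p = 0.00207). Cyp4f18, known from neutrophils, rose at a low level of 1.39 ± 0.323 CPM in DKO and 0.618 ± 0.100 CPM in SKO (log2 1.17 ± 0.31, adjusted p = 0.0253), a call that ended with DESeq2 and in 5 of the 6 fits without 1 library, all but that without DKO replicate 2. Adh7, an alcohol dehydrogenase, fell (log2 -0.82 ± 0.13). Of 20 regulators and partners of PPAR-alpha, 3 fell and none rose, a smaller share called than the 20.0% of all genes. They were Creb3l3, Sirt1, a deacetylase that acts on PGC-1-alpha (log2 -0.40 ± 0.11, adjusted p = 0.026), and Ncor1, a corepressor (log2 -0.23 ± 0.07, adjusted p = 0.0411). Each of these 3 calls ended in several alternatives, and Ncor1 was called in 3 of 12 fits only.

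Targets of PPAR-alpha outside oxidation included the largest fall of all 7 lists. Of 17 tested, 3 fell and 2 rose. One rise was Fgf21, at a low level of 2.78 ± 0.363 CPM in DKO and 1.15 ± 0.289 CPM in SKO (log2 1.26 ± 0.25, edgeR adjusted p = 0.00796), called in all 12 fits. Retsat, retinol saturase, had 112, 92.6 and 108 CPM in DKO, against 509, 419 and 453 CPM in SKO (log2 -2.14 ± 0.11, edgeR adjusted p = 4.42e-06). Its DKO libraries were far below all SKO libraries, and the call held in all 12 fits. Ephx2, the soluble epoxide hydrolase, averaged 707 ± 42.9 CPM in DKO and 1037 ± 62.2 CPM in SKO (log2 -0.55 ± 0.10, adjusted p = 0.00482), and the lysosomal protease gene Ctsz, which macrophages also express, rose to 312 ± 15.8 CPM in DKO, against 220.2 ± 14.8 CPM in SKO (log2 0.50 ± 0.09, adjusted p = 0.00395).

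How firm the 13 calls are differed between genes. Ppara, Fabp1, Acsl1, Acsl5, Acot3 and Abcd3 were called in all 12 fits. Hacl1 and Acot4 were also called in each of the 6 fits without 1 library. The other 5, Acad11, Bdh1, Decr2, Cyp4a31 and Acot1, lost their calls in at least 1 of those 6 fits, as given with each gene. DESeq2 called 3 genes higher and 17 lower, where it called 19.6% of all genes, 9.97% higher and 9.66% lower. The fit without a filter on low counts also called 3 higher and 17 lower, where it called 13.5% of all genes, 7.35% higher and 6.17% lower. Of all genes, upper-quartile factors called 20.3% and limma-voom 18.3%. The 6 fits without 1 library called between 9.91% (without SKO replicate 2) and 19.2% (without DKO replicate 2) of all genes.

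**Figure D5:**
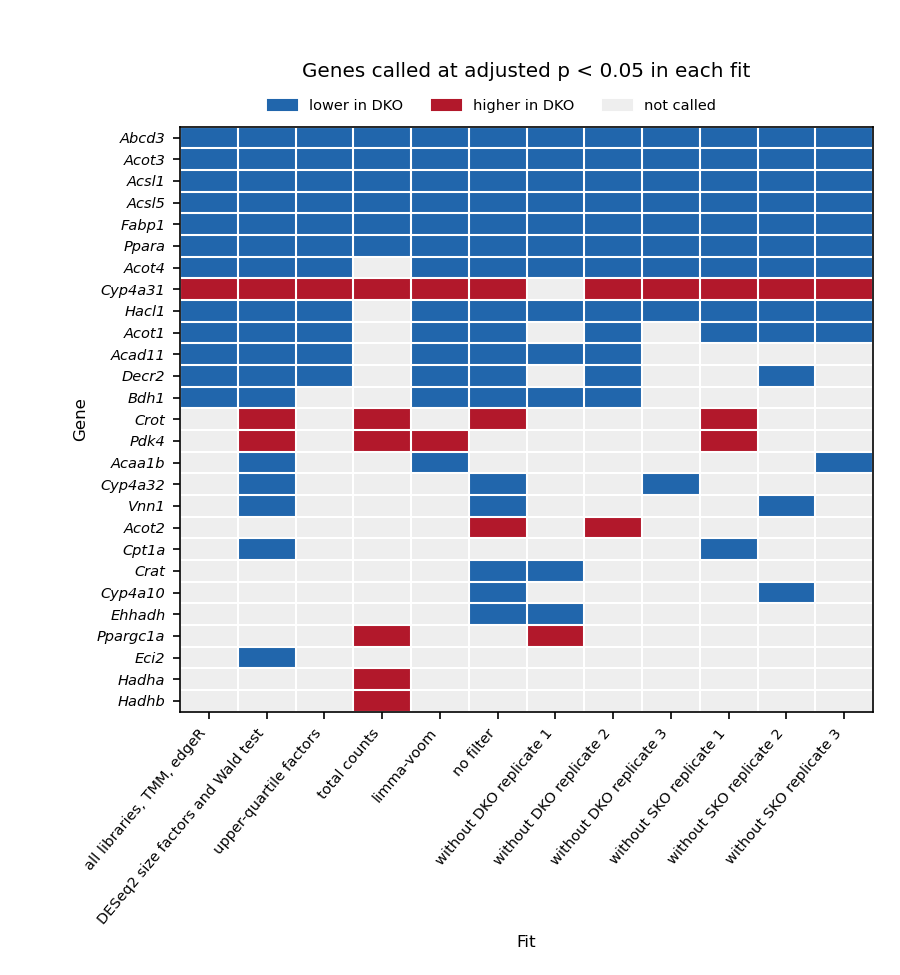
Calls of the 27 genes called in at least 1 of the 12 fits, with genes as rows and fits as columns, blue for lower, red for higher and pale grey for not called. Ppara, Fabp1, Acsl1, Acsl5, Acot3 and Abcd3 are called in every column, and the total-count column holds 6 lower and 6 higher calls.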

How the data were processed

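Raw read counts per Ensembl gene, deposited by the authors as 1 file per library, were the starting point. Per the submitters' processing notes, cutadapt 1.13, STAR, HTSeq 0.6.1p1, DESeq2 and mm10 were used. Their settings, the annotation release and the strand setting of counting are not stated there. Reads shared by near-identical or overlapping genes may therefore be dropped or divided. Near copies were taken as transcripts of at least 95% identity over at least 30% of the length.

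Samples were grouped by the genotype label. Replicate numbers follow accession order and pair nothing. Between libraries of a group, chi-square per degree of freedom was 10.2 to 29.4, so none was a re-sequencing of another. Whether they came from different animals cannot be read from this. Symbols came from GENCODE M21, in which 54165 of 54232 identifiers matched.

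DKO was tested against SKO with robust quasi-likelihood fits in edgeR 4.0.16 (R 4.3.3), after filterByExpr and TMM scaling, on 4 residual degrees of freedom. P-values were adjusted by Benjamini-Hochberg over 13986 genes, and calls were made under 0.05. CPM are counts-per-million values on TMM-scaled library totals. CPM per kb use the longest coding transcript. On simulated data of 13780 genes, the fit recovered 32 of 100 changes of log2 0.5 and 71 of 96 of log2 1, with 3 false calls. Changes were set in a far smaller share of genes than the 20.0% called in the data, which makes the adjusted threshold stricter. These recovery rates therefore do not carry over to the genes described, for which the 95% intervals give the limit. Of the 20 uncalled mitochondrial genes, 16 had intervals within -0.5 to 0.5. Small changes may still be missed.

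The genes and lists were chosen with earlier results of these data known. All called genes are named, with the 3 most abundant per kb and the 3 largest changes of each compartment. The 3 smallest p-values are named in each further list, of which 1 symbol was not matched. The other genes given by value were chosen for their place in the pathway or after their values were seen. Alternatives were DESeq2 1.42.0, upper-quartile factors, total counts, limma-voom (limma 3.58.1), no filter and each library left out.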

Additional observations from a re-analysis of the deposited data

How the results depend on the processing

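Of the 46 genes, 13 were called; leaving out a library gave 10 to 14, and DESeq2 and no filter 20 each. Mitochondrial calls were 2, both lower, with 4 by DESeq2 or no filter (1 higher and 3 lower in each), 1 by upper-quartile factors (lower), 3 by total counts (all higher, none lower) and 0 to 3 without a library, where 1 was higher without DKO replicate 2 and 1 without SKO replicate 1. Peroxisomal calls were 5, all lower, with 8 by DESeq2 (1 higher), 3 by total counts (1 higher) and 4 to 5 without a library (1 higher without SKO replicate 1); the higher one was Crot. Microsomal calls were 1, higher, with 2 by DESeq2 (1 lower), 3 with no filter (2 lower) and 0 to 2 without a library (1 lower without DKO replicate 3 and 1 without SKO replicate 2). Further pathway genes called were 40, with 25 to 42 without a library, the fewest without SKO replicate 2. All genes called were 2803, with 4397 by total counts and 1419 to 2739 without a library, 1784 without SKO replicate 3 and 1831 without DKO replicate 3.

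Signs turned for uncalled genes. With total counts these were Cpt2 0.07, Acadl 0.20, Acadvl 0.19, Acads 0.10, Hadh 0.03, Echs1 0.14, Eci1 0.10, Decr1 0.11, Acaa2 0.09, Etfa 0.10, Etfb 0.18, Eci2 0.01 and Acaa1a 0.07 (log2), and with upper-quartile factors Acadl 0.04, Acadvl 0.03 and Etfb 0.02. Leaving out a library gave ranges of -0.10 to 0.34 for Cd36, -0.04 to 0.09 for Slc25a20, -0.01 to 0.21 for Acadm, -0.06 to 0.01 for Acadl, -0.10 to 0.01 for Acadvl, 0.00 to 0.12 for Hadhb and -0.09 to 0.02 for Etfb. The cause of these changes was not tested, beyond the scaling that total counts omit.

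No paired analysis was possible because the replicate numbers follow accession order and no label ties a DKO library to an SKO library. With 3 libraries a group, small changes are often missed, and counts of near-identical genes are uncertain.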
